A study of Homo sapiens and Mus musculus with 9 samples.

Results

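Peaks of the pregnane X receptor (PXR) crosslinking data were examined in the genes of 2 cytoplasmic actins, ACTB and ACTG1, and of 2 proteins that bind actin, CFL1 and TMSB10. A peak was counted when its summit lay in the GRCh38 span of one of these genes. They held 23 of the 3706 peaks in 3 human lists, which together with a mouse liver list make up the 5884 peaks of the series: 3 of 46 peaks in the KO-named LS174T list, 8 of 1557 in the HepG2-labelled list and 12 of 2103 in the WT-named LS174T list. The genes were chosen by name and not by a peak value, although with earlier results of these data known.

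In enhanced UV crosslinking and immunoprecipitation (eCLIP), RNA is crosslinked to protein by UV light, trimmed with RNase I, immunoprecipitated with its protein and sequenced. Per the labels, irradiation was at 254 nm with 400 mJ/cm2. The human samples were 1 PXR immunoprecipitate (IP) of PXR knockout LS174T cells, 1 PXR IP and 1 input of wildtype LS174T cells, and 2 IPs and 1 input of HepG2 cells, labelled as PXR IPs and made with an anti-HA antibody. LS174T is a colorectal adenocarcinoma line and HepG2 a hepatocellular carcinoma line. The labels do not say how the knockout was made, whether it is 1 clone, or how a tagged PXR entered the HepG2 cells. Each list is a single set of peaks without values per library, so no difference below could be set against a spread between replicates.

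The record ties the KO-named list to the wildtype PXR IP and the WT-named list to the wildtype input, which goes against the genotypes in the names of these lists and of their peaks. The names are used here only to tell the lists apart, and a difference between them has no settled meaning as genotype or as IP against input. The median peak rested on 19, 9 and 11 reads in the KO-named, HepG2-labelled and WT-named lists. Of 15 hepatocyte marker genes, none held a peak in the KO-named or the HepG2-labelled list and 1 did in the WT-named list; of 13 colon epithelium markers, 0, 2 and 9 did in the same order of lists. Luminal breast markers had peaks in 0, 4 and 2 of 10. GATA3 (47 reads), XBP1 (38) and ESR1 (9) had peaks in the HepG2-labelled list alone, and AGR2 (21) in the WT-named list alone. TFF1 held 38 reads in the HepG2-labelled and 51 in the WT-named list. FOXA1, TRPS1, SPDEF, MGP and ANKRD30A had no peak in any list. Over all nuclear protein-coding genes the share with a peak was 0.11%, 5.45% and 7.23% in the same order of lists. Fibroblast markers had no peak in any list (0 of 6). At these shares a set as small as the hepatocyte or fibroblast markers can lack peaks in any cell, so their absence does not tell which cells were used. The part of cell identity in the results below was not tested.

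Actin is the protein of the microfilaments, which assemble from monomers, turn over and carry cell shape, adhesion and movement. ACTB (beta-actin) and ACTG1 (gamma-actin) encode the forms found in nearly all cells, and how closely their coding sequences match was not examined here. CFL1 encodes cofilin, which severs filaments and speeds their disassembly, and TMSB10 encodes thymosin beta-10, a small peptide that binds actin monomers. These mRNAs are abundant in many cell types, and the lists hold no expression values, so the amount of an RNA and its recovery with a protein cannot be told apart.

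All 4 genes held a peak in the HepG2-labelled and in the WT-named list, and 2 of the 4, ACTG1 and TMSB10, did in the KO-named list. Among all 20037 nuclear protein-coding genes the share with a peak was 0.11% in the KO-named list, 5.45% in the HepG2-labelled list and 7.23% in the WT-named list. Among such genes of at most 5000 bp, the size class of these 4, it was 0.25%, 4.66% and 5.97%. The peaks also clustered within the genes. At least 3 peaks lay in ACTB and in ACTG1 in the HepG2-labelled list and in ACTB, ACTG1 and TMSB10 in the WT-named list, whereas 1.83% and 6.84% of the protein-coding genes with a peak held as many. Every one of the 23 peaks lay on the strand from which its gene is transcribed.

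**Figure D1:**
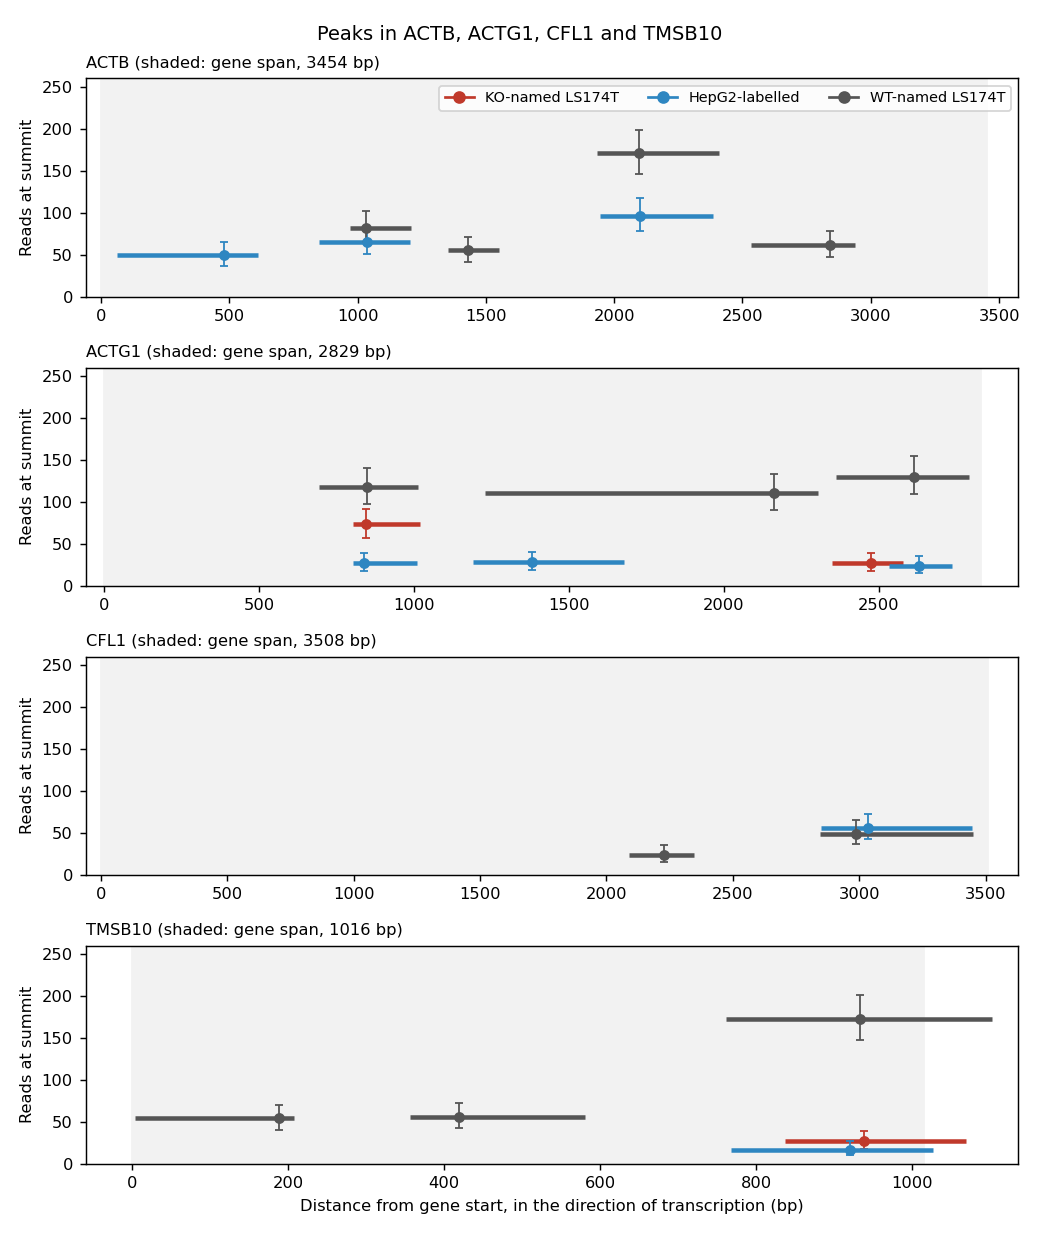
Peaks along each gene, with distance from the gene start in bp on the horizontal axis and reads at the summit on the vertical axis. Horizontal bars span the peak, points mark the summit and vertical bars are 95% Poisson intervals; several summits lie at nearly the same distance in more than 1 list, for example 844, 839 and 849 bp into ACTG1 in the KO-named, HepG2-labelled and WT-named lists.

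Reads at a summit were worked out from the deposited fold enrichment and p-value of each peak, and the same calculation gives the reads of the same strand in the 10000 bp window around it. Each gene is shorter than its window, no other peak lay within 5000 bp of any of them, and summits of 1 gene returned nearly the same window count (529 to 537 in ACTB in the HepG2-labelled list, 583 at all 4 ACTB summits of the WT-named list). The window count can hold reads of the neighbours FSCN2 (at ACTG1), MUS81 and SNX32 (at CFL1), of LOC221946 (at ACTB), and of LOC105374837 and the lncRNA LOC105374836, which overlaps TMSB10. All intervals are 95% intervals for counting error only, since reads may include PCR copies.

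ACTB, on the minus strand of chromosome 7 from 5527148 to 5530601, held no peak in the KO-named list, 3 in the HepG2-labelled list and 4 in the WT-named list. Its deepest site lay 2101 bp from the gene start in the HepG2-labelled list, with 96 reads (interval 77.8 to 117), and 2098 bp in the WT-named list, with 171 reads (interval 146 to 199). The summits were 3 bp apart, and the ratio of reads, HepG2-labelled over WT-named, was 0.561 (interval 0.433 to 0.725) in raw reads and 1.01 per 10000 summed summit reads of protein-coding peaks. A second site, with summits 1035 and 1032 bp from the start, held 65 against 82 reads, a ratio of 0.793 whose interval includes 1 (0.563 to 1.11), or 1.42 on that scale. The remaining ACTB sites were found in a single list each.

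The most 5′ ACTB site, 479 bp from the start, was called in the HepG2-labelled list with 49 reads. At the ACTB window depth of the WT-named list, a summit would have needed 30 reads to reach the lowest −log10 p deposited on that strand. In turn, the WT-named list had sites at 1430 bp (55 reads) and 2840 bp (61 reads), where the HepG2-labelled list would have needed 28 reads each. These thresholds take the window count as uniform over the gene and do not cover stretches too short to be called. Only under these assumptions would the uncalled list lie below the called one in raw reads at each of the 3 sites. The window depths were 537 and 583 reads in the HepG2-labelled and WT-named lists, and the reads at uncalled sites are unknown.

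ACTG1, on the minus strand of chromosome 17 from 81509971 to 81512799, was the member where peaks of all 3 lists overlapped at more than 1 place. At its 5′ site the KO-named list held 73 reads (interval 57.2 to 91.8), the HepG2-labelled list 27 (interval 17.8 to 39.3) and the WT-named list 117 (interval 96.8 to 140), with summits at 844, 839 and 849 bp. Near the 3′ end the counts were 27 in the KO-named list, 24 in the HepG2-labelled list and 130 in the WT-named list, at 354, 198 and 214 bp from the gene end. A middle peak was called in the HepG2-labelled list (490 bp wide, 28 reads) and in the WT-named list (1076 bp wide, 110 reads). These overlapped although their summits lay 780 bp apart, so they are not 1 site. The KO-named list had none there. To reach its lowest −log10 p on that strand, 9.73, 20 reads would have been needed. That list has only 46 peaks, its lowest value over both strands was 7.59, and the caller's cutoff is not known. Fewer reads may therefore have been enough.

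The LS174T lists differed in how their ACTG1 reads were split between sites. The 5′ site took 44.8% of the window reads in the KO-named list (73 of 163, Clopper-Pearson interval 37 to 52.8%), against 16.8% in the WT-named list (117 of 696, interval 14.1 to 19.8%). The HepG2-labelled list stood at 13.9% (27 of 194, interval 9.38 to 19.6%). At the overlapping 3′ peaks the shares were 16.6% in the KO-named list, 12.3% in the HepG2-labelled list and 18.7% in the WT-named list, with overlapping intervals. The KO-named summit there lay 140 bp from the WT-named and 156 bp from the HepG2-labelled summit, so these may not be 1 site. The KO-named share at the 5′ site was 2.66 times that in the WT-named list. Over the 22 protein-coding sites shared by both LS174T lists, the member sites included, this ratio of shares had a median of 1.32 (quartiles 0.999 and 2.72). Of the 22, 15 lay below the ACTG1 site. Sites with a KO-named peak are by selection those where its reads were concentrated.

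**Figure D2:**
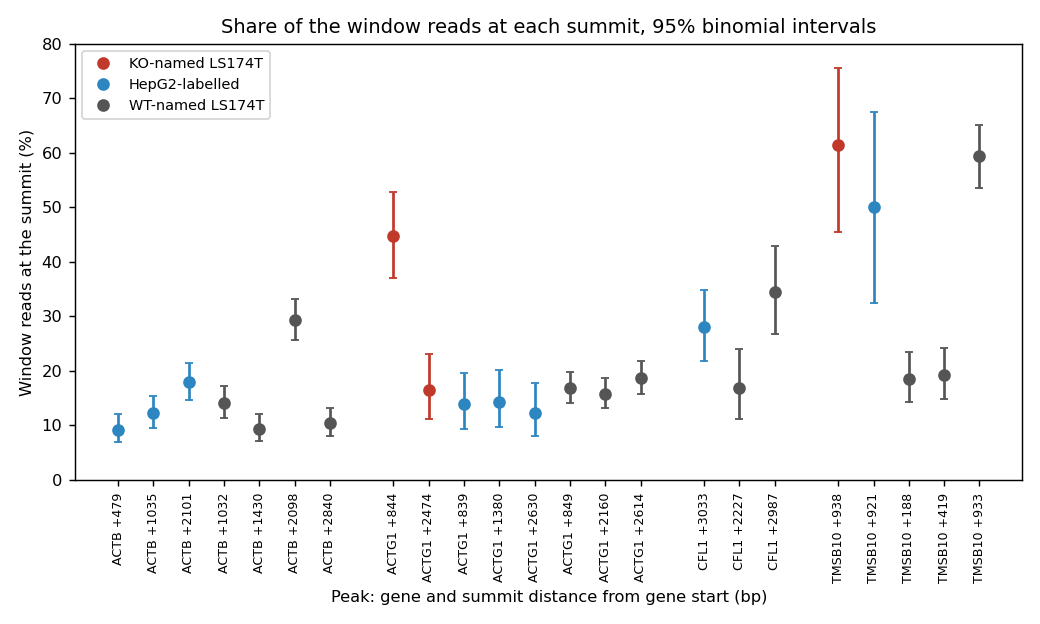
Percent of the reads in the 10000 bp window that lay at each summit, for all 23 peaks, named by gene and by distance from the gene start in bp. Bars are 95% Clopper-Pearson intervals; the ACTG1 site at 844 bp in the KO-named list (44.8%) lies above both other lists at that site, and the 3′ site of TMSB10 holds between 50% and 61.4% in all 3 lists.

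CFL1, on the minus strand of chromosome 11 from 65854673 to 65858180, had no KO-named peak, 1 HepG2-labelled peak and 2 WT-named peaks. Its main site was a broad peak in the 3′ part of the gene, 601 bp wide with 56 reads (interval 42.3 to 72.7) in the HepG2-labelled list and 606 bp wide with 49 reads (interval 36.3 to 64.8) in the WT-named list. Their lower coordinates were 1 bp apart, and their summits, 474 and 520 bp from the gene end, were 46 bp apart. In raw reads the ratio of 1.14 was within counting error (interval 0.765 to 1.71), and per 10000 summed summit reads of protein-coding peaks it was 2.05. The second site, 2227 bp from the start, had 24 reads in the WT-named list and would have needed 15 in the HepG2-labelled list.

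TMSB10, on the plus strand of chromosome 2 from 84905656 to 84906671, is the shortest of the 4 genes at 1016 bp. Its 3′ site was found in every list, with 27 reads (interval 17.8 to 39.3) in the KO-named list, 17 (interval 9.9 to 27.2) in the HepG2-labelled list and 173 (interval 148 to 201) in the WT-named list. The summits lay 77, 94 and 82 bp from the annotated gene end in the same order of lists. This site alone took 61.4%, 50% and 59.5% of the window reads in that order, with intervals that overlap. At a fold enrichment of 25.5 the WT-named peak ranked 17th of 1702 peaks in protein-coding genes.

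The WT-named list also held TMSB10 peaks at 188 bp (54 reads) and 419 bp (56 reads) from the start, which neither other list had. By the lowest −log10 p on that strand, a summit would have needed 10 reads in the KO-named list and 7 in the HepG2-labelled list. The KO-named figure rests on few peaks, so fewer reads may have been enough there. The first of these peaks, chr2:84905659-84905863, opened at base 4 of the annotated gene and was 205 bp wide, close to the 200 bp to which reads are extended in the calculation. The sequence where it opens is shown because, of all member peaks, it comes nearest to a gene's start. It is from the RefSeq table of GRCh38.p14 (chr2:84905646-84905675, plus strand), with capitals for the bases inside the peak.
TMSB10 start: ccgctcttttgttTCTTGCTGCAGCAACGC
Peaks at the other end ran past the annotated gene, since they reach 84906725 in the KO-named, 84906683 in the HepG2-labelled and 84906759 in the WT-named list. In each list the overhang was shorter than the 200 bp extension, so it does not by itself show RNA beyond the gene end.

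Peaks often overlapped between lists. All 3 KO-named peaks overlapped a WT-named peak by at least 1 bp on the same strand. This was not particular to the members, since 95.7% of the KO-named peaks in all protein-coding genes did so. Of the 8 HepG2-labelled peaks 7 overlapped a WT-named peak, against 39.4% of all HepG2-labelled peaks in protein-coding genes and 58.5% of those with at least 17 reads, the lowest count among the 8. Of the 12 WT-named peaks 7 overlapped a HepG2-labelled peak, against 25.3% and, from 24 reads upward, 37.8%. Both counts of 7 include the middle ACTG1 peaks, which are not 1 site. They became 6 for summits within 50 bp and 5 for overlap of at least 50% of both peaks. No share over all peaks was worked out for these settings. Leaving aside the wide middle ACTG1 peaks, summits of shared sites in the HepG2-labelled and WT-named lists were 3 to 46 bp apart.

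For the whole genes, raw window reads differed between the lists in unequal measure. ACTB held 537 window reads in the HepG2-labelled list and 583 in the WT-named list, a ratio of 0.921 (interval 0.818 to 1.04). CFL1 held 200 against 142, a ratio of 1.41 (interval 1.13 to 1.76). ACTG1 held 194 against 696, a ratio of 0.279 (interval 0.236 to 0.327), and TMSB10 34 against 291, a ratio of 0.117 (interval 0.0794 to 0.167). The intervals of ACTB and ACTG1 do not overlap, so the actin genes stood at different ratios beyond counting error, though without a replicate.

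The ratio over all 427 protein-coding sites shared by these lists, the member sites included, had a median of 1.04 (quartiles 0.644 and 1.77). ACTB and CFL1 lay between the quartiles. Of the 427 sites, 15 had a lower ratio than ACTG1 and 2 a lower ratio than TMSB10. ACTB and ACTG1 reads could be exchanged only where stretches of their sequences match, which was not examined here. How the authors treated reads with several placements was not given in the sources used here.

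**Figure D3:**
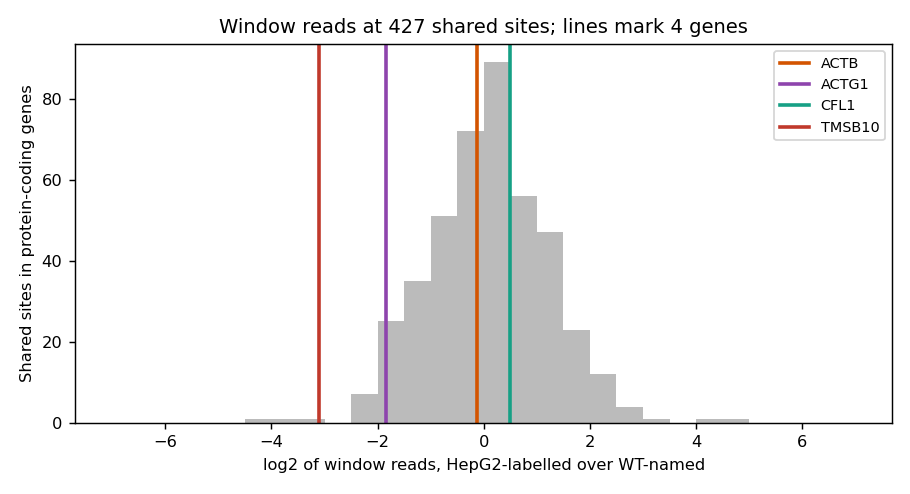
Histogram of the log2 ratio of window reads, HepG2-labelled over WT-named, at 427 shared sites in protein-coding genes, with coloured lines at the ratios of the 4 genes. TMSB10 (ratio 0.117) and ACTG1 (0.279) lie in the left tail, and ACTB (0.921) and CFL1 (1.41) near the centre.

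Between the LS174T lists, ACTG1 had 163 window reads in the KO-named list and 696 in the WT-named list, a ratio of 0.234 (interval 0.196 to 0.278). TMSB10 had 44 against 291, a ratio of 0.151 (interval 0.108 to 0.208). The 22 shared protein-coding sites, the member sites included, had a median window ratio of 0.152 (quartiles 0.0927 and 0.243). TMSB10 lay near the median. ACTG1 lay just below the upper quartile, which its own sites help to set. At the summits the ratio was 0.624 (interval 0.459 to 0.843) at the 5′ ACTG1 site and 0.156 for TMSB10. It was 0.208 for the overlapping 3′ ACTG1 peaks, which may not be 1 site. These are raw reads. Per 10000 summed summit reads of all protein-coding peaks the 3 ratios became 19.8 (5′ ACTG1), 4.96 (TMSB10) and 6.6 (3′ ACTG1), so their direction depends on the scaling. The KO-named sum of 1184 reads includes peaks in the mitochondrial genes ND2 (439 reads), ND3 (189), ND5 (65) and CYTB (21). Sites in ND3, ND5 and CYTB are also among the 22 shared sites. ACTB and CFL1 had no KO-named peak, and their reads there are unknown.

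**Figure D4:**
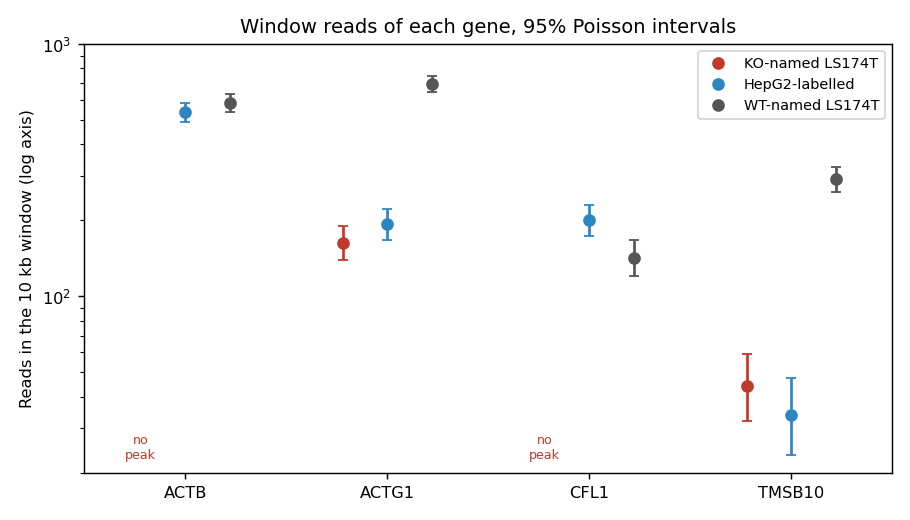
Reads in the 10000 bp window around the deepest summit of each gene (log axis), for the KO-named, HepG2-labelled and WT-named lists, with 95% Poisson intervals. ACTB stands at 537 and 583 reads in the HepG2-labelled and WT-named lists, whereas ACTG1 (194 and 696) and TMSB10 (34 and 291) are separated; no value exists for ACTB and CFL1 in the KO-named list.

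The member peaks were deeper than most in the HepG2-labelled and WT-named lists, and their fold was not uniformly high or low. Their median was 27 reads in the KO-named list, where all protein-coding peaks had a median of 24, 38.5 reads in the HepG2-labelled list, against 10, and 71.5 against 11 in the WT-named list. Their median fold over the local background was 14.9 against 10.9 in the KO-named list, 5.84 against 7.03 in the HepG2-labelled list and 7.99 against 7.26 in the WT-named list. The ACTB peak at 1430 bp in the WT-named list held more reads than 95.7% of the protein-coding peaks and a higher fold than 1.65% of them. A summit took a median of 14.2% of its window in the 8 HepG2-labelled peaks and 17.8% in the 12 WT-named peaks, against 37.4% and 36.7% over protein-coding peaks of at least 10 reads. The background of a peak counts the reads of the other peaks in its window. The 3′ TMSB10 site exceeded the protein-coding medians of fold and of share in both lists.

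**Figure D5:**
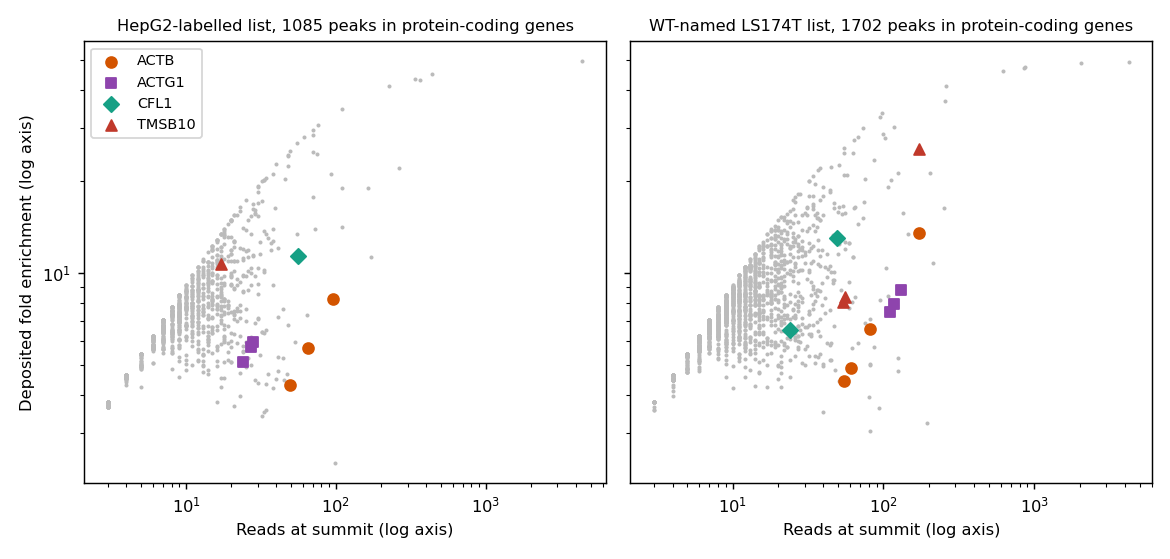
Deposited fold enrichment against reads at the summit, both on log axes, for all peaks in protein-coding genes of the HepG2-labelled list (left, 1085 peaks) and the WT-named list (right, 1702 peaks), with the 4 genes in colour. Peaks of ACTB and ACTG1 lie at the right of the cloud with folds from 4.32 to 8.26 in the HepG2-labelled list and from 4.42 to 13.6 in the WT-named list, and the 3′ TMSB10 peak of the WT-named list (173 reads, fold 25.5) lies near the upper edge.

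By their highest read counts over the 3 lists, the protein-coding gene nearest to ACTB was KRT18, an epithelial keratin, with no KO-named peak, 110 reads in the HepG2-labelled list and 125 in the WT-named list. Nearest to ACTG1 was the ribosomal stalk gene RPLP1 with 33, 46 and 118 reads, then the glycolytic enzyme gene GAPDH with 33, 38 and 251, in the order KO-named, HepG2-labelled and WT-named. Nearest to TMSB10 was RPLP2 with 28, 15 and 53 reads. CFL1 was closest to the transcription factor gene SOX12, with 70 and 55 reads and no KO-named peak. Likeness was the summed absolute difference of log2(reads + 1) over the 3 lists, which was 0.64 for KRT18, 1.96 for RPLP1, 1.91 for RPLP2 and 0.48 for SOX12. A gene without a peak in a list entered as 0 reads there, although its reads are unknown. This favours genes with peaks in the same lists.

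Processed copies of ACTB also carried peaks. Of 14 numbered ACTB pseudogenes in the gene table, 2 had a peak in the HepG2-labelled list and 3 in the WT-named list, and none of 21 ACTG1, 8 CFL1 and 2 TMSB10 pseudogenes did in any list. Over all 17051 pseudogenes the share with a peak was 0.0352% in the KO-named, 0.34% in the HepG2-labelled and 0.733% in the WT-named list. ACTBP2 on chromosome 5 held 16 reads in the HepG2-labelled list and 34 in the WT-named list, in peaks that both began at 77785673. ACTBP11 on chromosome 1 held 5 and 12 reads, and ACTBP7 on chromosome 15, which lies inside FRMD5, 6 reads in the WT-named list. At ACTBP2 the summit took 69.6% and 87.2% of the window reads, far more than at any ACTB summit. Reads of ACTB and its copies are hard to tell apart, and such placements are uncertain.

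Among 102 other genes of the actin cytoskeleton, 0 held a peak in the KO-named list, 16 (15.7%) in the HepG2-labelled list and 33 (32.4%) in the WT-named list, against the 5.45% and 7.23% of all protein-coding genes. Both lists held 11 of them, the HepG2-labelled list alone 5 and the WT-named list alone 22. With peaks of at least 10 reads the counts were 7 and 20, against 2.75% and 3.89% of all genes. The deepest of them in the WT-named list was PFN1 with 65 reads. That was below the 173 of TMSB10, the 171 of ACTB and the 130 of ACTG1, and above the 49 of CFL1. PFN1 was also the deepest in the HepG2-labelled list, with 27 reads. There it stood below ACTB (96), CFL1 (56) and ACTG1 (28), and above TMSB10 (17). None of the 5 other actin genes listed, which include the muscle actins and the actin-related ACTL6A, had a peak.

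Of 9 genes for monomer binders, profilin PFN1, which feeds monomers to growing filament ends, was the only one with a peak in the 3 lists, at 27 reads in the HepG2-labelled list and 65 in the WT-named list. TMSB4X, the abundant relative of TMSB10, had none. Among 10 severing and disassembly genes, DSTN, a relative of cofilin, held 7 reads in both lists and gelsolin GSN 10 reads in the HepG2-labelled list alone. Capping genes had 0 and 2 of 6 with a peak, namely EPS8 (6 reads) and TMOD3 (5 reads) in the WT-named list. Nucleation genes had 3 and 6 of 16, with the formin gene DIAPH1 at 11 reads in both lists, the Arp2/3 subunit gene ARPC4 at 8 and 15, and cortactin CTTN at 15 in the HepG2-labelled list alone. Of 3 elongation genes VASP held 12 reads in the WT-named list.

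Crosslinking and bundling genes had peaks in 3 of 16 in the HepG2-labelled list and 6 of 16 in the WT-named list. The alpha-actinin gene ACTN4 held 15 and 51 reads and TAGLN2 9 and 27 in that order. Tropomyosins, which coat filaments, had peaks in 2 of 4 in both, TPM4 with 22 and 12 reads and TPM3 with 7 and 11. Myosin genes had 2 and 6 of 10. The light chain genes MYL6 (13 and 18 reads) and MYL12A (9 and 11) were in both lists, and the non-muscle heavy chain gene MYH9, with 4 peaks of up to 36 reads, in the WT-named list alone.

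Genes that link filaments to the membrane had peaks in 1 of 12 in the HepG2-labelled list, spectrin SPTAN1 with 5 reads, and in 4 of 12 in the WT-named list, among them SPTBN1 with 7 peaks of up to 30 reads and ezrin EZR with 24. Regulators had peaks in 2 and 4 of 11. ROCK2, a kinase downstream of RHOA, held 9 and 11 reads, LIMK1, the kinase that inactivates cofilin, 8 in the HepG2-labelled list alone, and RHOA itself 18 in the WT-named list alone. Differences between the lists in these counts were not tested, and many of these genes are long, which gives a summit more room to fall in.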

How the data were processed

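The human peak lists of eCLIP for PXR were used. The submitters' processing notes name cutadapt, BWA and MACS2 and the builds hg38 and mm10. For versions, settings and any pooling of the HepG2 libraries, the labels state nothing. Used from the deposited files were the fold enrichment (a ratio to the caller's local background), the −log10 p and −log10 q values, and the summit's offset. The deposited score held no further measure, being the −log10 q multiplied by 10 without its decimals in all rows of these lists.

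Reads were recovered here as the whole n for which fold = (n + 1) / (λ + 1), p is the upper Poisson tail beyond n at mean λ, and λ is 0.02 times a whole window count of at least n. The −log10 p had to match within 0.001 plus a small relative term. A unique solution was found for 46 of 46 KO-named, 1557 of 1557 HepG2-labelled and 2102 of 2103 WT-named peaks. In a test on simulated peaks, in the number of each list, 46, 1557 and 2103 were recovered in the same order, with 0 wrong. These peaks were made with the same formula, so the test covers the solving step and not whether the formula holds for the deposited values. Their reads did not span the full range of the lists.

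Summits were assigned to GRCh38.p14 RefSeq gene spans without exons. Where genes overlapped, a small RNA gene, then a pseudogene, then the shortest gene gave the protein-coding peak class. Strand came from the RefSeq promoter table, and for ACTB from general knowledge. Shares and ratios carry exact binomial (Clopper-Pearson) intervals and reads exact Poisson intervals, with SciPy 1.17.1. No test between conditions was possible. The 4 genes, the 102 other actin genes and the cell markers were chosen with earlier results of these data known. Of the actin list, the text names per role and list up to 2 genes with most reads; TMSB4X and ACTL6A, which had no peak, were named after the values were seen. A gene that this rule would name is not reported here. Coding, intron and UTR positions were not analysed here.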

Additional observations from a re-analysis of the deposited data

How the results depend on the processing

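No paired analysis was possible because each group is represented by 1 peak list, so replicates could neither be paired nor left out. Of 48 recomputed counts (any overlap with the gene, peaks on the gene's strand, −log10 q of at least 5, at least 10 reads, overlap of at least 50% of both peaks, summits within 50 bp), 46 stayed within 1.5 times. The exceptions were the actin list genes with a peak of at least 10 reads, 7 in the HepG2-labelled and 20 in the WT-named list, fewer by construction. Many counts could not change under the strand, q and read settings. Every member peak lay on its gene's strand, with at least 17 reads and a −log10 q of at least 7.28. The KO-named actin list count was already 0. HepG2-labelled peaks with a WT-named partner fell from 7 to 5 at 50% overlap and to 6 by summit distance. KO-named peaks with such a partner fell from 3 to 2 by summit distance. In the 10000 bp window in place of the summit, the ratio at the 5′ ACTG1 site, KO-named over WT-named, was 0.234, and that at the deepest ACTB site, HepG2-labelled over WT-named, 0.921. Scaled to the summed summit reads of protein-coding peaks, every ratio between overlapping peaks changed. KO-named over WT-named turned to 19.8 at the 5′ ACTG1 site, 6.6 for the overlapping 3′ ACTG1 peaks and 4.96 at TMSB10. HepG2-labelled over WT-named crossed 1 at both ACTB sites, to 1.01 and 1.42, and became 0.331 and 0.414 at the 3′ and 5′ ACTG1 sites, 0.457 for the overlapping middle ACTG1 peaks, which are not 1 site, 2.05 at CFL1 and 0.176 at TMSB10. Those sums were 1184, 20985 and 37652 reads over 5193, 270671 and 449777 bp of peaks in the KO-named, HepG2-labelled and WT-named lists, with means of 51.5, 19.3 and 22.1 reads per peak. They follow how many peaks were called, include mitochondrial genes and rest in part on a few deep peaks, so no scaling is preferred. A single SYCP2L peak gave 4408 reads of the HepG2-labelled sum and another 4233 of the WT-named sum. Depth limits the TMSB10 site most, with 17 reads in the HepG2-labelled list.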
